A study of Mus musculus with 5 samples.

Results

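The Hedgehog pathway was described here by 9 of its genes: the ligands Shh, Ihh and Dhh, the receptor Ptch1, the signal transducer Smo, the inhibitor Hhip, and the transcription factors Gli1, Gli2 and Gli3. They were listed by name and not ranked by a measured value, but earlier results of these data were known when they were chosen. All 9 were found among the 22350 protein-coding genes of chromosomes 1 to 19 and X in the GENCODE annotation of mouse genome build mm9. For each gene the start site and the gene record were set against H3K27me3 peaks. H3K27me3 is histone H3 trimethylated at lysine 27, the product of Polycomb Repressive Complex 2 (PRC2), and it marks genes held silent in development.

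The mark was measured by chromatin immunoprecipitation and sequencing of MNase-digested chromatin from mouse embryonic fibroblasts (MEFs), in a series of 5 libraries with 1 library for each group. The cell lines were isogenic, came from a single embryo and carried an Eed gene flanked by loxP sites, a gene that encodes a PRC2 subunit and was not deleted in the cells described here. They were transduced with lentivirus for stable expression of H3.3 K27R, H3.3 K27M or human EZHIP, and transduced cells were selected with puromycin. K27R replaces lysine 27 of histone H3.3 with arginine and served as the reference, K27M is the methionine substitution of pediatric gliomas and inhibits PRC2, and EZHIP is the protein expressed in posterior fossa ependymomas that also inhibits PRC2. Peak lists of these 3 groups were used, and the control cells and the line with Eed deleted were not analysed here. With 1 library per group no difference could be tested. Each list gives positions without heights, so that a start site outside the peaks was not called, which does not show that the mark was absent. Fewer cells with the mark and less of the mark per cell cannot be told apart.

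In Hedgehog signalling the secreted ligands bind Ptch1, which otherwise holds Smo inactive. Active Smo, acting in the primary cilium, lets Gli2 and Gli3 act as activators in place of their repressor forms, and Gli1, Ptch1 and Hhip are themselves induced by the signal, with Ptch1 and Hhip acting back on it. In the embryo Shh patterns limb and neural tube, Ihh acts in growing cartilage and Dhh in testis and peripheral nerve, while mesenchymal cells usually receive the signal.

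The K27R list held 12845 peaks covering 582 Mb (22.1% of the chromosomes), the K27M list 3736 peaks covering 51.0 Mb (1.93%) and the EZHIP list 4992 peaks covering 36.5 Mb (1.38%). The median width of a peak was 16.0 kb in the K27R list, 6.8 kb in the K27M list and 4.4 kb in the EZHIP list. The identity of the cells could not be read from RNA, which these lists do not hold. Of 10 mesenchymal and fibroblast genes, Col1a1, Col1a2, Col3a1, Fn1, Vim, Pdgfrb, Thy1, Twist1 and Prrx1 had the start site outside the peaks of all 3 lists, and Pdgfra had it inside a peak of all 3.

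Sequences just upstream of the start site are shown for genes with peaks in all 3 lists, in K27R alone and in none. The following 250 bases end at the start site, or within 2 bp of it, and are printed from RefSeq 5′ to 3′ on the strand of the gene, with each CG dinucleotide in capitals because CpG-rich DNA is where PRC2 is known to be recruited. Ihh (chr1:74951673-74951922, minus strand, GRCm38.p6) and Dhh (chr15:98898541-98898790, minus strand) lay in peaks of all 3 lists. Hhip (chr8:80058009-80058258, minus strand) lay in a K27R peak alone, and Gli2 (chr1:119053620-119053869, minus strand) lay in none. Each window had 1 exact match in mm9, at chr1:74998247-74998496 for Ihh, chr15:98728972-98729221 for Dhh, chr8:82581908-82582157 for Hhip and chr1:120950197-120950446 for Gli2.
Ihh: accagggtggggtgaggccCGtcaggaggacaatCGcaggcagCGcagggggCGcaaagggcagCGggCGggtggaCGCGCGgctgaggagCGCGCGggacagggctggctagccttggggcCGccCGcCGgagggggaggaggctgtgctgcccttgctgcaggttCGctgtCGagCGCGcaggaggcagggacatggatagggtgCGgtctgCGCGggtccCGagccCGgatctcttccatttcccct
Dhh: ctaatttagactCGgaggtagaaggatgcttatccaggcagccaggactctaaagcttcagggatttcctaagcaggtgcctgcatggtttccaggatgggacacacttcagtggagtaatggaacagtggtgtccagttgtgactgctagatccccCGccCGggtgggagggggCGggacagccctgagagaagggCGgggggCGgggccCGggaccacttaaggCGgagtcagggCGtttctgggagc
Hhip: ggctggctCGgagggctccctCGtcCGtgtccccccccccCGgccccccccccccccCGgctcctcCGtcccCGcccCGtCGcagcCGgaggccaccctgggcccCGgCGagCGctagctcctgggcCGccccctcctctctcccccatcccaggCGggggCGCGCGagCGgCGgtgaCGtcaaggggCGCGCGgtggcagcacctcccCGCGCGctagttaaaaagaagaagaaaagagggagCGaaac
Gli2: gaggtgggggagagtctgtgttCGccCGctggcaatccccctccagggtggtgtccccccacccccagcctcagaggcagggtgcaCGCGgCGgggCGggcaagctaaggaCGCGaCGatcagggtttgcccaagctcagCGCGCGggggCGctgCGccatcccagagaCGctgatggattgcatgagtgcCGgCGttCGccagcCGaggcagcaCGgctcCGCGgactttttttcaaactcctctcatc

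These windows held 24 CG in Ihh, 9 in Dhh, 28 in Hhip and 22 in Gli2. The RefSeq windows of Ptch1, Smo and Gli3 held 41, 15 and 34 CG. The RefSeq starts of these 3 genes stood -7431, 197 and -488 bp from the start site used for the peaks, upstream positive. RefSeq promoters of 7 of the 9 genes were matched, and Shh and Gli1 were the others. Over 21263 promoters the median was 10.0 CG, with quartiles at 3.00 and 19. Within these 7 windows the count of CG did not order the genes by their peaks. Dhh, with 9 CG, lay in peaks of all 3 lists, and Gli3, with 34 CG, lay in none. The CpG islands of Dhh lay downstream of the start, outside its window. The Gli binding sequence GACCACCCA, searched on both strands, was in 0 of the 7 windows and in 34 of the 21263 promoters (0.160%), which says only that these letters are not in this window.

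The 3 ligand genes lay in peaks of all 3 lists, and no other of the 9 genes had its start site in a K27M or EZHIP peak. In K27R cells 5 of the 9 start sites were in a peak, those of Shh, Ihh, Dhh, Hhip and Gli1, beside 30.1% of all protein-coding genes. In K27M cells 3 of 9 were in a peak, beside 9.02% of all genes, and in EZHIP cells 3 of 9, beside 7.73%. Of the 6735 protein-coding genes with the start site in a K27R peak, 29.9% also had it in a K27M peak, 25.6% in an EZHIP peak and 21.9% in both, and of the 5 such Hedgehog genes it was 3 in each case. These are counts over 9 genes in 1 library per group, and the share over all genes stands beside them as a description.

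**Figure D1:**
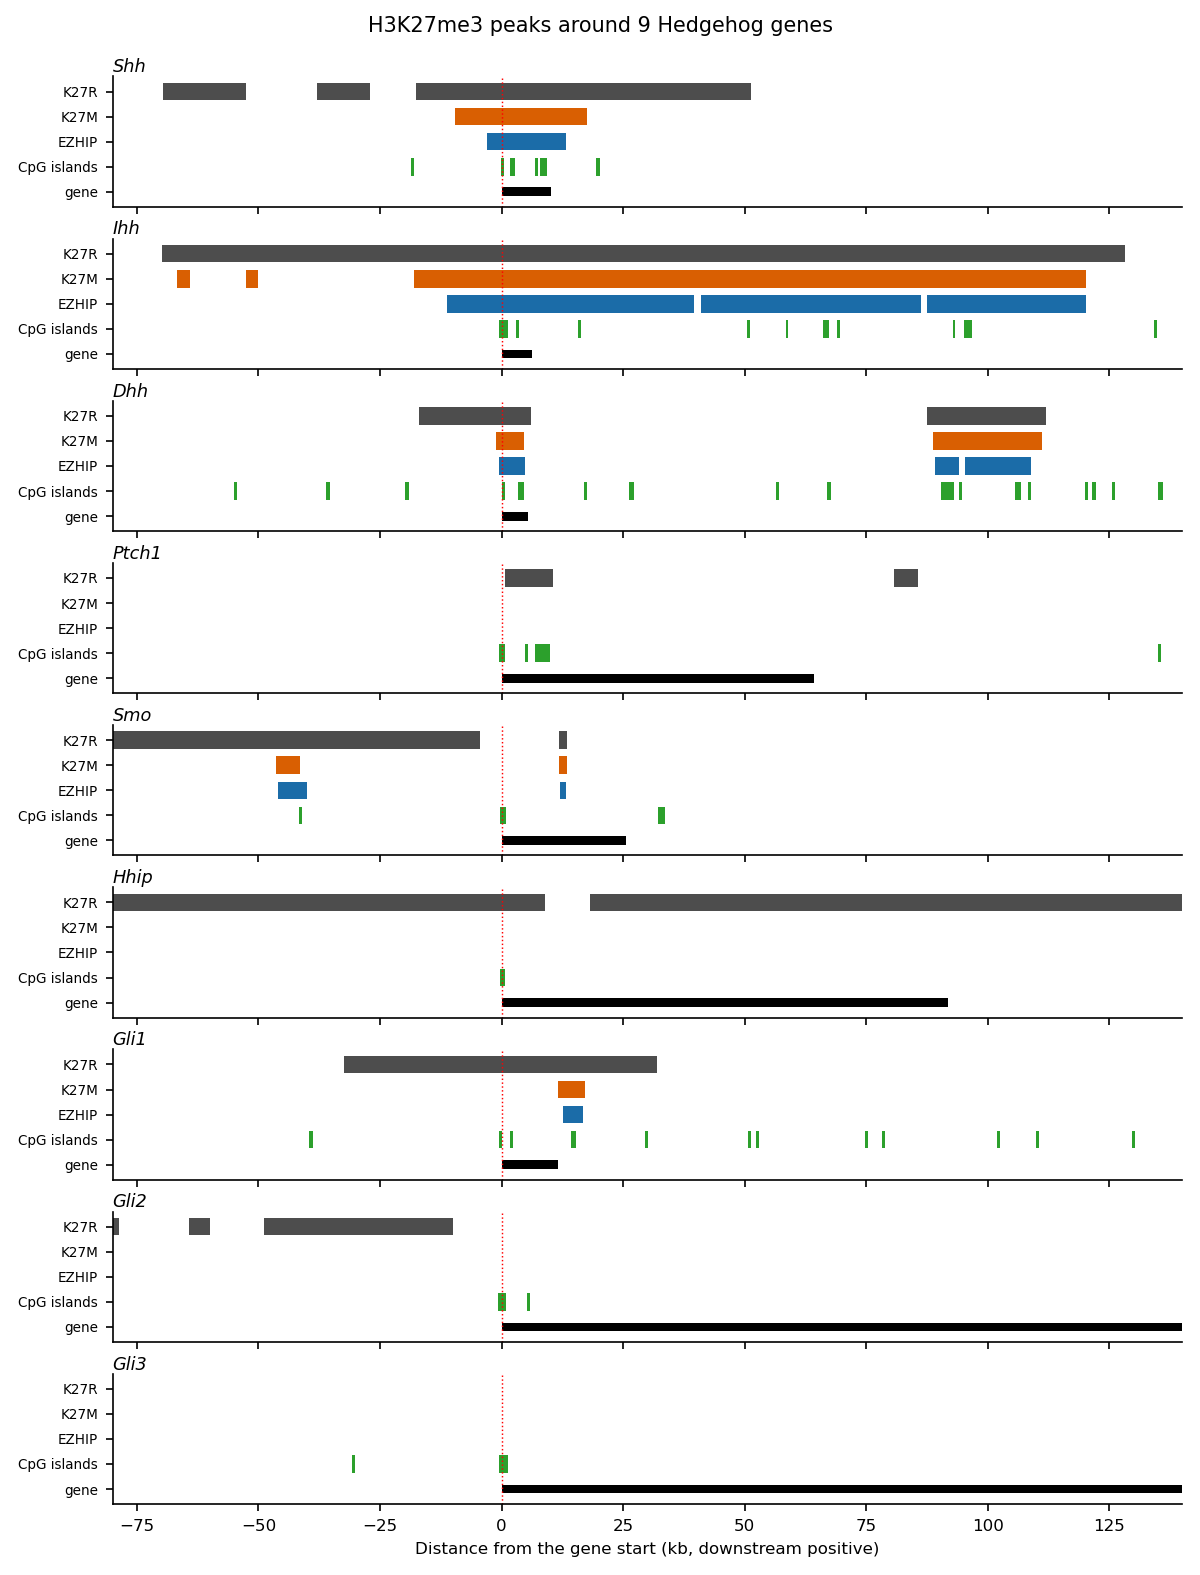
H3K27me3 peaks of K27R (grey), K27M (orange) and EZHIP (blue) cells around each of the 9 genes, plotted by distance from the gene start in kb, with CpG islands (green, drawn at least 0.6 kb wide) and the gene record (black); the dotted line is the start site, and K27R peaks of Smo, Hhip and Gli2 and the records of Gli2 and Gli3 run past the edge. Peaks of all 3 lists cross the start of Shh, Ihh and Dhh, a K27R peak alone crosses that of Hhip and Gli1, and no peak is drawn within 80 kb upstream of Gli3 or 140 kb downstream.

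Shh (ENSMUSG00000002633.3, chr5:28783355-28793641, minus strand), the ligand of limb and neural tube, stood alone in its region. In K27R cells a peak of 68.8 kb (chr5:28742401-28811200) reached from 17.6 kb upstream to 51.2 kb downstream of the start. In K27M cells the peak was 27.2 kb wide (chr5:28776001-28803200), from 9.6 kb upstream to 17.6 kb downstream. In EZHIP cells it was 16.2 kb wide (chr5:28780401-28796600), from 3.0 kb upstream to 13.2 kb downstream. The 3 peaks were nested, each inside the one before, and all 3 covered the whole gene with its 3 exons. The K27M peak took 39.5% of the K27R region and the EZHIP peak 23.5%, and the EZHIP peak filled 59.6% of the K27M peak. The region held no start site of another protein-coding gene, although its downstream end lay over part of Rbm33, a gene of an RNA-binding protein. Of its 5 CpG islands, the 4 within Shh were in the K27M and EZHIP peaks and the fifth, outside Shh, was in neither. A second K27R peak of 11 kb (chr5:28820601-28831600), 27 to 38 kb upstream, had no K27M or EZHIP peak in it.

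Ihh (ENSMUSG00000006538.8, chr1:74991891-74998246, minus strand), the ligand of growing cartilage, lay in a K27R region of 198.0 kb (chr1:74870001-75068000), the widest single K27R peak over a start site of the 9 genes. With peaks up to 10000 bp apart merged, the region at Hhip was wider, at 363.2 kb. K27M cells had 3 peaks in it, 143.2 kb in all or 72.3% of the region, and the peak over Ihh was 138.2 kb wide (chr1:74878001-75016200). EZHIP cells also had 3 peaks, 128.8 kb in all or 65.1%, and the peak over Ihh was 50.8 kb wide (chr1:74958601-75009400). All of the EZHIP length lay inside K27M peaks and made up 89.9% of their length. The difference in width at the start site was mostly a matter of gaps. The 3 EZHIP peaks of 32.8, 45.2 and 50.8 kb stood 1.2 kb and 1.4 kb apart. Joined across these gaps they spanned 131.4 kb. The study's methods give a maximum gap setting of 10000 for these peak calls, and why shorter gaps remain in the list is not given. The gene with its 3 exons was covered whole in all lists.

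The Ihh region was shared by 4 other protein-coding genes with the start site inside it. These were Cdk5r2, an activator of the neuronal kinase Cdk5, Fev, a transcription factor of serotonergic neurons, Cryba2, a lens crystallin, and Ccdc108. Their starts lay 96.7, 66.3, 58.5 and 16.1 kb from that of Ihh on the downstream side. All 5 start sites were in peaks of all 3 lists, and all 9 CpG islands of the region lay in K27M and in EZHIP peaks. The cover of Ihh is therefore that of a gene-dense stretch and cannot be assigned to Ihh alone.

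Dhh (ENSMUSG00000023000.4, chr15:98723462-98728971, minus strand), the ligand of testis and peripheral nerve, had the narrowest peaks of the ligands. The K27R peak was 23.0 kb wide (chr15:98723001-98746000), from 17 kb upstream to 6.0 kb downstream of the start. The K27M peak was 5.8 kb wide (chr15:98724401-98730200) and the EZHIP peak 5.2 kb (chr15:98724201-98729400). Most of the missing length was upstream, where the K27M peak reached 1.2 kb and the EZHIP peak 0.4 kb from the start. The EZHIP peak reached 4.8 kb downstream and the K27M peak 4.6 kb, a difference of 1 bin of 200 bp, so that here the EZHIP peak was not nested in the K27M peak. The gene was covered to 100% in K27R, 83.0% in K27M and 86.6% in EZHIP. K27M took 25.2% of the K27R region and EZHIP 22.6%. Both CpG islands of Dhh, of 222 and 1123 bp, lay downstream of the start and in peaks of all 3 lists.

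Ptch1 (ENSMUSG00000021466.5, chr13:63610261-63674474, minus strand), the receptor of the ligands, had its start site outside all peaks, with a K27R peak of 10.0 kb (chr13:63663801-63673800) beginning 674 bp downstream of it. The peak covered 15.6% of the gene record and 3 of its 26 exons. Of 4 annotated transcript starts, those 7.6 and 8.8 kb into the record lay in this peak, and those at 0 and 58.8 kb did not. The upstream window of the RefSeq start (mm9 chr13:63667044-63667293) also lay in it. With any transcript start counted, 6 of the 9 genes were thus in K27R peaks. The largest CpG island of the 9 genes, 3095 bp with 254 CG, was inside the peak, and the island across the gene start met the peak by its edge. No K27M or EZHIP peak was near Ptch1: the nearest stood 4.76 Mb from the start in K27M and 2.97 Mb in EZHIP.

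Hhip (ENSMUSG00000064325.3, chr8:82490014-82581905, minus strand), which binds the ligands and limits the signal, was under long K27R peaks with nothing in the other lists. A K27R peak of 179.6 kb (chr8:82573001-82752600) held the start site, and a second of 147.4 kb (chr8:82416401-82563800) lay downstream over the gene. Together they covered 82.7 kb of the gene record, 90.0%, with 12 of its 14 exons. The nearest K27M peak stood 250 kb from the start and the nearest EZHIP peak 428 kb. Of the 3623 K27R regions with a protein-coding start site, 49.2% held some K27M peak and 48.9% some EZHIP peak. A region without any peak of the one list or of the other was thus common over all widths. The Hhip region was wider than 84.3% of those regions, and the share among regions of similar width was not computed.

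Gli1 (ENSMUSG00000025407.5, chr10:126766945-126778645, minus strand), the target gene and activator of the pathway, lay whole in a K27R peak of 64.4 kb (chr10:126746601-126811000). Its start site was in no K27M or EZHIP peak. The region did hold a K27M peak of 5.6 kb (chr10:126761401-126767000) and an EZHIP peak of 4.2 kb (chr10:126761801-126766000), which were 8.70% and 6.52% of it. They began 11.6 and 12.6 kb downstream of the start. The K27M peak overlapped 56 bp of the last exon of Gli1, and the EZHIP peak ended 944 bp short of the gene. They lay over Arhgap9 and covered 71.5% and 53.7% of its record without reaching its start site. Mars, the methionyl-tRNA synthetase, and Inhbe and Inhbc, both activin subunits, also had the start site in the K27R region. All 5 start sites of the region were outside K27M and EZHIP peaks, whereas 5 of 5 in the Ihh region were inside. Of the 4 CpG islands in the Gli1 region, the island inside the K27M and EZHIP peaks was not at Gli1, whose own 2 islands lay in K27R alone.

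Gli2 (ENSMUSG00000048402.8, chr1:120730709-120950196, minus strand), the main activator, had no peak of any list over its 219.5 kb record. A K27R peak of 38.8 kb ended 10.0 kb upstream of its start, and the nearest K27M and EZHIP peaks stood 361 and 363 kb away. Gli3 (ENSMUSG00000021318.9, chr13:15555068-15821859, plus strand), the main repressor, had no peak over its 266.8 kb record either. The nearest K27R peak stood 309 kb upstream, and the nearest K27M and EZHIP peaks 1.67 Mb upstream. Among the genes chosen here to describe the pathway, Gli2 and Gli3 had the longest records, and no other gene lacked a peak in its record. Length was not compared with cover in the other Hedgehog genes.

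Smo (ENSMUSG00000001761.6, chr6:29685694-29711365, plus strand), the transducer, had its start site outside all peaks and an unusual narrow peak in an intron. A K27R region of 118.8 kb, which held the start of Tspan33, a tetraspanin, ended 4.49 kb upstream of Smo. Within Smo, 11.9 kb downstream of its start, K27R and K27M cells had peaks with identical bounds, 1.6 kb wide (chr6:29697601-29699200). EZHIP cells had a peak of 1.2 kb inside them (chr6:29697801-29699000). The stretch overlapped none of the 12 exons and no CpG island, and held 4 CG in 1600 bp (observed over expected 0.0344) at 57.8% GC. A K27M peak with identical bounds was found for 3 of the 12845 K27R regions. Of the 389 K27R regions of at most 1.6 kb, 6 overlapped a K27M peak (1.54%) and 2 overlapped an EZHIP peak (0.514%), Smo being in both counts.

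The sequence of this intronic peak was a tandem repeat, looked at after the peak had drawn attention. The bases below are the 300 at the upstream end of the EZHIP peak (chr6:29697801-29698100, mm9, plus strand), printed because the repeat is plain in them, with each CTGTG in capitals.
Smo intron: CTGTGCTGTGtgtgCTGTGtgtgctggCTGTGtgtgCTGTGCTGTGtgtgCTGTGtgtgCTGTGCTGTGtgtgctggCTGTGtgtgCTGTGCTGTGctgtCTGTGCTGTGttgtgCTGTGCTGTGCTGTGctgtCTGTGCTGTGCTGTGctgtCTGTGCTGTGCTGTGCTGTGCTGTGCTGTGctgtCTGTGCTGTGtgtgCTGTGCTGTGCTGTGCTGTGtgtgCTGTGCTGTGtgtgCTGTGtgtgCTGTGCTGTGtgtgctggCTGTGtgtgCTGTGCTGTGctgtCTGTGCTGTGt
They held 42 copies of CTGTG, which took 70.0% of the bases. Over the 1600 bp of the K27R peak there were 211 copies on the plus strand and 0 on the minus strand, with 65.9% of bases in a copy. The median over the 389 narrow K27R regions, with both strands searched, was 1.79%, and the highest other value was 10.0%. The part of the repeat in the calls was not tested.

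By gene body, the ligands had the highest share in K27M and EZHIP peaks, while in K27R Gli1 was covered whole as they were. Peaks overlapped the record of 7 of the 9 genes in K27R, beside 36.1% of all genes, of 5 in K27M, beside 11.5%, and of 4 in EZHIP, beside 10.6%. The 2 K27M genes beyond the ligands were Smo, through its narrow intronic peak, and Gli1, through the 56 bp at its end. With at least 10% of the record required, K27M and EZHIP each left 3 genes, the ligands. In K27R the cover was 100% in Shh, Ihh, Dhh and Gli1, 90.0% in Hhip, 15.6% in Ptch1, 6.23% in Smo and 0% in Gli2 and Gli3.

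**Figure D2:**
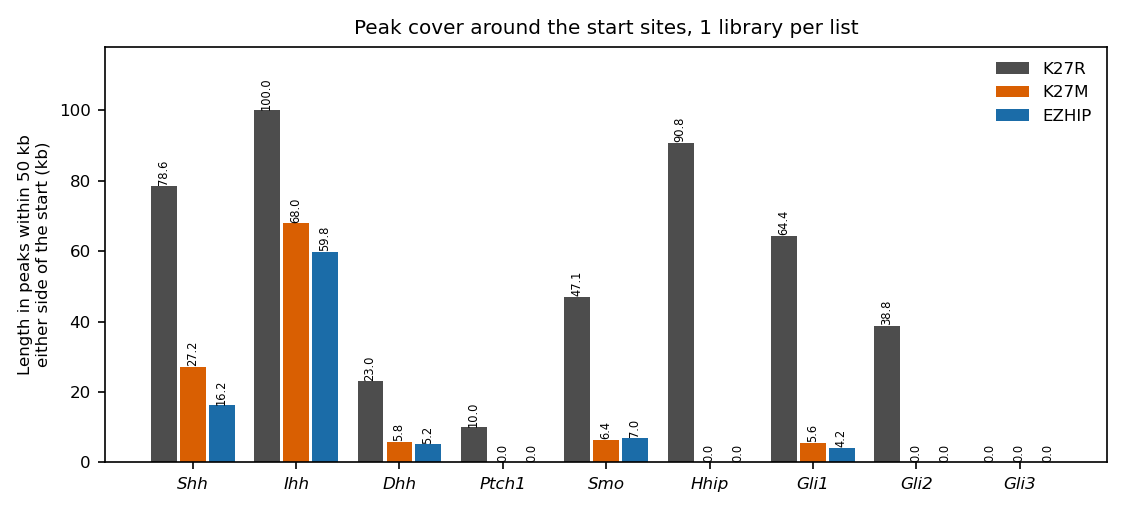
Length in H3K27me3 peaks within 50 kb either side of the start site (kb, bars from 0) for the 9 genes in K27R, K27M and EZHIP cells, 1 library each, so without error bars. In this window Ihh is highest in all 3 lists (100, 68.0 and 59.8 kb, the first of these filling the window), and Ptch1, Hhip, Gli2 and Gli3 are at 0 in K27M and EZHIP.

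Within 50 kb either side of the start, a window of 1 length for all genes, the order of cover in K27R was Ihh at 100 kb, Hhip at 90.8, Shh at 78.6, Gli1 at 64.4, Smo at 47.1, Gli2 at 38.8, Dhh at 23.0, Ptch1 at 10.0 and Gli3 at 0. In K27M it was Ihh at 68.0 kb, Shh at 27.2, Smo at 6.4, Dhh at 5.8 and Gli1 at 5.6, with the other 4 genes at 0. In EZHIP the order of these 5 was the same, with Ihh at 59.8 kb, Shh at 16.2, Smo at 7.0, Dhh at 5.2 and Gli1 at 4.2. EZHIP was below K27M in 4 of the 5 genes and above it in Smo, where most of the cover in the window was a peak near Tspan33, 4.8 kb wide in K27M and 5.8 kb in EZHIP. The order depended on the window. With 100 kb either side Hhip had 191 kb in K27R and Ihh 170 kb. With 20 kb either side, K27R peaks filled the window in Ihh and Gli1 and took 37.6 kb in Shh and 30.8 kb in Hhip. In that window Smo had 1.6 kb in K27M and 1.2 kb in EZHIP, below Dhh and Gli1, and it was below Dhh with 100 kb too. Without replicates it is not known which neighbours in these orders differ beyond the spread between libraries. For K27R the median over the 9 genes was 47.1 kb, for K27M 5.60 kb and for EZHIP 4.20 kb, beside 14.8, 0 and 0 kb over all genes and 71.6, 1.47 and 1.20 kb over genes with the start site in a K27R peak.

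**Figure D3:**
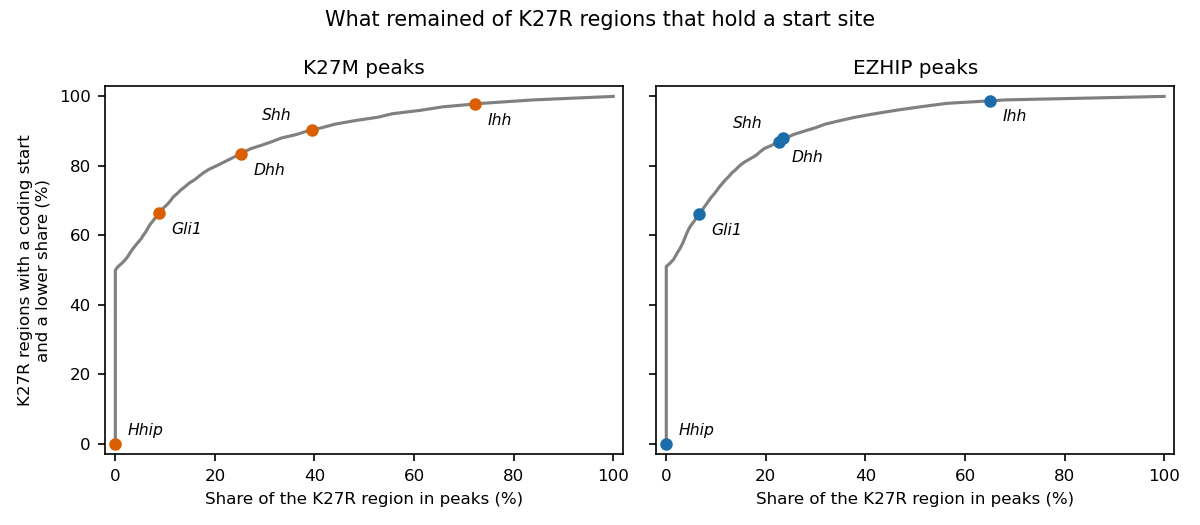
Share of a K27R region that lay in K27M peaks (left) or EZHIP peaks (right), in percent, against the percent of the 3623 K27R regions with a protein-coding start site that had a lower share; the grey line is all regions and the points are the regions that hold the start of a Hedgehog gene. Ihh (72.3% and 65.1%) is near the top of the line, Shh and Dhh have smaller shares, and Hhip is at 0 in both panels.

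Set among the 3623 K27R regions with a protein-coding start site, the ligand regions had high shares left in peaks. The share at Ihh exceeded that of 97.8% of regions in K27M and 98.8% in EZHIP. At Shh it exceeded 90.2% and 87.9%, and at Dhh 83.4% and 87.0%. At Gli1 it exceeded 66.3% and 66.0% through the peak over Arhgap9. Where a region held any peak of the list, the median share was 15.2% in K27M and 11.7% in EZHIP. A share also depends on the width of the region. The Dhh region, at 23.0 kb, was wider than 24.7% of the regions, whose median width was 53.6 kb. Its K27M peak of 5.8 kb was below the median width of that list, 6.8 kb. The EZHIP peak at Dhh, of 5.2 kb, was above the median of its list, 4.4 kb.

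**Figure D4:**
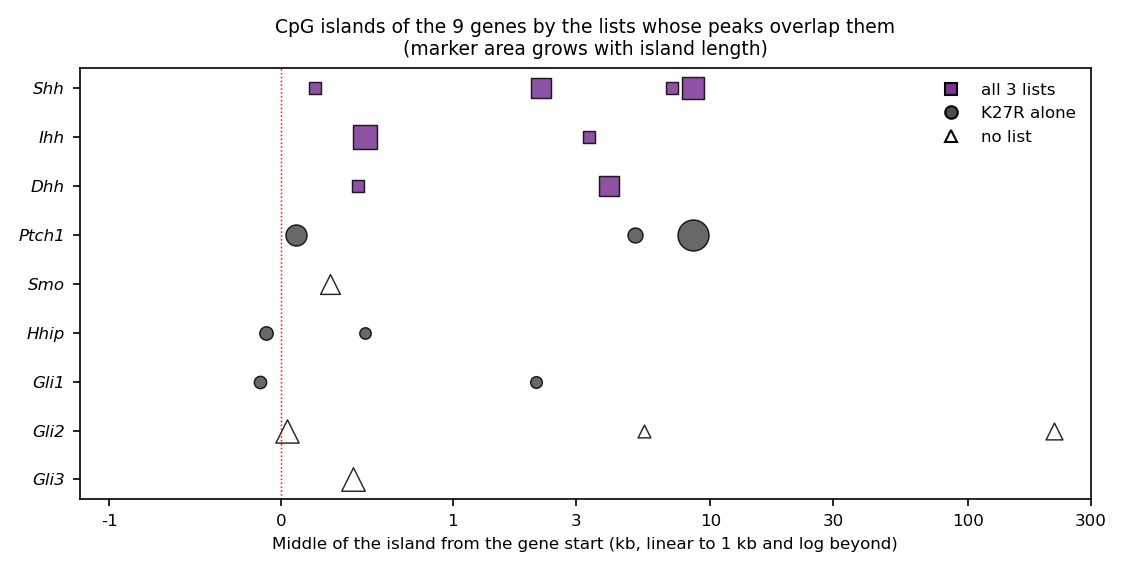
CpG islands of the 9 genes by the distance of their middle from the gene start (kb, linear to 1 kb and logarithmic beyond); marker area grows with island length, and the marker gives the lists whose peaks overlap the island. The 8 islands of Shh, Ihh and Dhh are in all 3 lists, the 7 of Ptch1, Hhip and Gli1 in K27R alone and the 5 of Smo, Gli2 and Gli3 in none.

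CpG islands, stretches dense in the CG dinucleotide, followed the genes they belonged to. The 9 genes had 20 islands in the record or within 5 kb of the start. Of these, 15 overlapped a K27R peak, beside 25.2% of the 26796 islands of the genome, 8 a K27M peak, beside 11.5%, and 8 an EZHIP peak, beside 9.70%. The 8 were the islands of the ligands, 4 in Shh, 2 in Ihh and 2 in Dhh, and they lay in all 3 lists. The 7 islands of Ptch1, Hhip and Gli1 overlapped K27R peaks alone, and the 5 of Smo, Gli2 and Gli3 overlapped none. The island across the Ptch1 start met its K27R peak only by the edge. With at least 50% of an island required, 14 were in K27R peaks, 8 in K27M and 8 in EZHIP. Length did not separate these sets: the ligand islands ran from 218 to 1822 bp, and the island across the Gli3 start had 1683 bp and 199 CG. Islands covered the start site in 7 genes, Shh and Dhh being the exceptions, whose nearest islands began 62 and 336 bp downstream.

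Other genes of the pathway were taken from a list of 49, of which 47 were found as protein-coding genes, Disp1 and Foxl1 being the others. The start site was in a K27R peak in 20 of the 47 (42.6%), in a K27M peak in 14 (29.8%) and in an EZHIP peak in 10 (21.3%), beside the shares of all genes given above. The genes in peaks fell in 3 of the 4 roles. Of 6 genes of ligand release, 4 were in K27R peaks, 1 in a K27M and 1 in an EZHIP peak. Of 5 genes listed under receptors and co-receptors, it was 2, 2 and 1, from Lrp2 and Gpc3. Of 19 genes that act in the cytoplasm or cilium, such as Sufu, the inhibitor of the Gli proteins, and Kif7, the cilium kinesin, it was 0 in all 3 lists. Of 17 genes listed as targets it was 14, 11 and 8. Each of these counts includes Hand2, which acts upstream of Shh. Many of the targets are developmental transcription factors in their own right, and the list was not built to represent other genes.

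**Figure D5:**
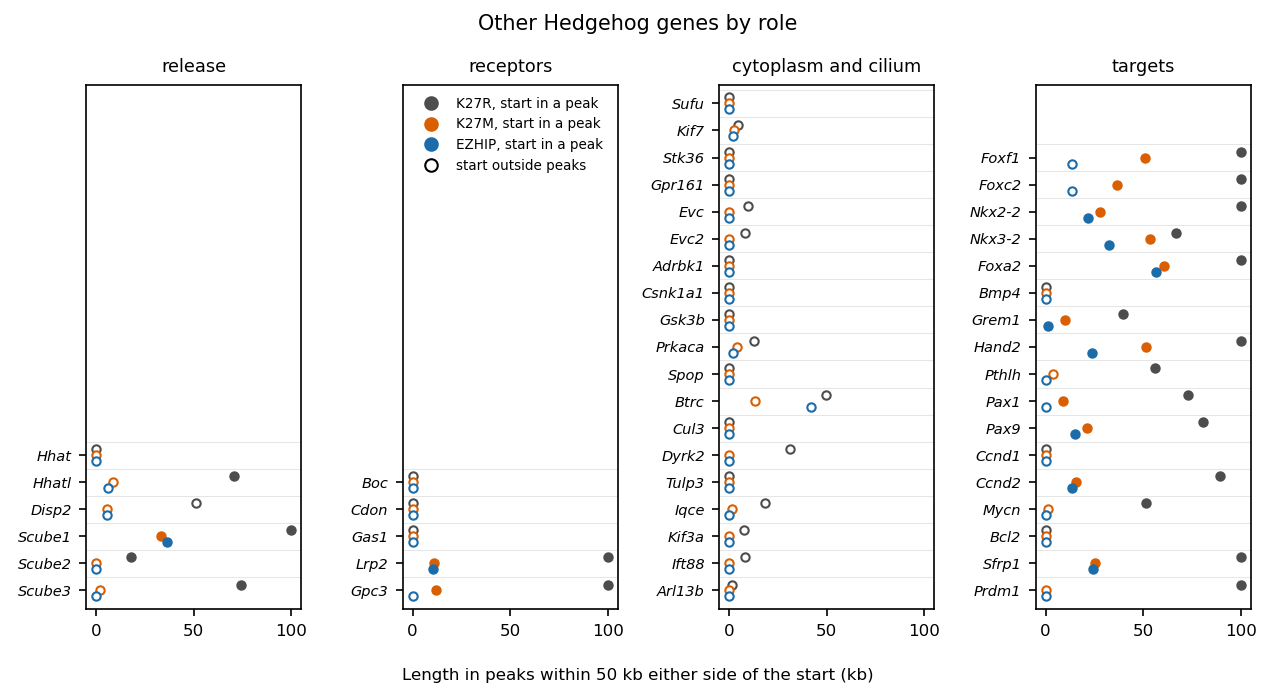
Length in H3K27me3 peaks within 50 kb either side of the start site (kb) for 47 other Hedgehog genes by role, in K27R (grey), K27M (orange) and EZHIP (blue) cells; filled circles mark a start site in a peak of that list and open circles a start site outside. No circle is filled among the 19 genes of cytoplasm and cilium. Of the 17 genes listed as targets, Hand2 among them, 14, 11 and 8 are filled in K27R, K27M and EZHIP.

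Foxa2, the floor plate transcription factor induced by Shh, had the widest K27M and EZHIP peaks of these genes. Its K27R peak was 178.2 kb wide, its K27M peak 54.8 kb and its EZHIP peak 45.2 kb. Nkx3-2, of somite cartilage, followed with 72.0, 53.4 and 32.2 kb in the same order. Hand2, a limb bud factor upstream of Shh that was listed and counted among the targets, had 227.0, 51.4 and 13.0 kb. Foxf1, of gut and lung mesenchyme, lay in a K27M peak of 42.0 kb with its start outside the EZHIP peaks, and Foxc2, in the same K27R peak of 187.4 kb, likewise in a K27M peak of 8.8 kb. Nkx2-2, of the ventral neural tube, had 27.6 kb in K27M and 19.6 kb in EZHIP. It shared its K27R peak of 305.4 kb with Pax1, of the sclerotome, whose start was in a K27M peak of 8.8 kb and in no EZHIP peak.

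Further targets had the start site in peaks of both lists. Sfrp1, a secreted Wnt antagonist, had 23.2 kb in K27M and 22.6 kb in EZHIP, Pax9 21.4 and 15.2 kb, Ccnd2, a cyclin, 15.6 and 13.6 kb, and Grem1, the BMP antagonist of the limb, 10.0 and 1.4 kb. In Grem1 the EZHIP peak was thus close to the narrowest in the list, 1.2 kb. Among release genes Scube1, of the family that helps the ligand leave the cell, had 30.8 and 22.4 kb. Among receptors Lrp2, a large endocytic receptor, had 11 and 8.8 kb. Gpc3, on chromosome X and named after its values were seen, lay whole in a K27R peak of 4110.6 kb. Its start was in a K27M peak of 4.4 kb and outside the EZHIP peaks. The co-receptors Boc, Cdon and Gas1 had 0 kb in peaks of any list within 50 kb.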

How the data were processed

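Peak lists of 3 H3K27me3 ChIP-Seq libraries were analysed, and groups were taken from the sample titles. By the study's methods and the submitters' processing notes, the authors aligned reads with Bowtie 1.0.0 to mm9 and to a reference genome (dm6) and called broad peaks with MOSAiCS-HMM. Each deposited list gives the start and end of each peak in bp and no other value, on bins of 200 bp, so depth is unknown. Which library served as background and whether the scaling entered the calls are not given in the sources used here.

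Starts and ends were counted from 1. The start site was the 5′ end of the GENCODE vM1 record, and peaks and genes overlapped when they shared at least 1 bp. The last peak of each of the 20 chromosomes ended inside the mm9 chromosome. Each CpG island was located in the mm9 chromosomes by scoring CG with 17 and other bases with -1. Stretches longer than 200 bp were kept, with GC of at least 50% and an observed over expected CG ratio over 0.6. Promoter sequences came from RefSeq (GRCm38.p6). The tools were tested on simulated data: 50 simulated lists gave 0 errors, and the island finder missed 1 of 200 planted islands. Scripts ran in Python 3.11.15 with numpy 2.4.6 and matplotlib 3.10.9. No statistical test was run.

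The genes and lists were chosen with earlier results of these data known. The text names the 9 genes, every coding gene that starts in their K27R regions, and of the other Hedgehog genes those with the widest K27M or EZHIP peak at the start (12 by the rule, and 13 here, since Foxc2 and Pax1 were tied at 8.8 kb). Genes named outside this rule are Gpc3, Sufu, Kif7, Boc, Cdon, Gas1, Tspan33 and Rbm33. They were chosen after their values were seen. 1 listed gene is not reported here.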

Additional observations from a re-analysis of the deposited data

How the results depend on the processing

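Of 66 alternatives to the counts and shares, 54 stayed within the limits set for them and 12 moved. For counts of genes or islands the limit was a factor of 1.5, so that 5 and 7 genes in K27R were held to be the same. The number of Hedgehog genes with the start site in a peak stayed at 3 in K27M and 3 in EZHIP under all 6 alternatives tried, and ran from 5 to 7 in K27R, where Ptch1 or Smo were added by other start sites or by a margin of 5000 bp. On autosomes alone the share of all genes in K27R peaks was 28.2%. The summed gene body cover of the 9 genes, 128 kb in K27R, was 154 kb with 5 kb upstream added, 137 kb with peaks up to 10000 bp apart merged and 127 kb with peaks of at least 5000 bp. In K27M it was 22.9 kb, and 34.1 and 21.3 kb with the upstream part and the wider peaks. In EZHIP it was 22.6 kb, and 31.0 and 21.4 kb. With at least 10% of the gene body required, the K27M count was 3 in place of 5. Counting islands of at least 500 bp, which are fewer, gave 7 in K27R, 4 in K27M and 4 in EZHIP, in place of 15, 8 and 8. With peaks of at least 5000 bp the intronic Smo peak was left out of all 3 lists and the EZHIP peak in the Gli1 region was left out too. Of the values by gene, 65 of 81 for gene body cover, 32 of 54 for window cover, 22 of 27 for the nearest peak and 17 of 20 for the residual share stayed within their limits.

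No result came from a test. With 1 library per group no paired analysis was possible, and there was no replicate to leave out. All values rest on 1 library per group, with positions but no heights or depth. A narrower or missing peak and a shallower library cannot be told apart.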
